A study of Mus musculus with 2 samples.

Results

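The expression of 10 genes of the bone-resorbing osteoclast was described in 2 single-cell libraries of fetal bone marrow. The genes were the protease Ctsk and the phosphatase Acp5, the acid-transport genes Atp6v0d2, Tcirg1 and Clcn7, the fusion genes Dcstamp and Ocstamp, the surface receptors Oscar and Itgb3, and the transcription factor Nfatc1. These 10 of the 22652 genes in the deposited tables were selected on their UMI levels in these libraries, which set one group of cells apart, so the levels below are a description and were not tested. Each library held lineage-depleted femoral marrow cells of C57BL/6 embryos at E18.5, captured in the microwells of a BD Rhapsody cartridge, where each transcript molecule receives a unique molecular identifier (UMI). One library came from wild-type (WT) embryos and the other from Bmx-CreER Wls embryos, called Wls cKO here, in which tamoxifen given to the pregnant dams activates a Cre recombinase driven by Bmx, an arterial endothelial gene, to delete Wls, a gene needed for Wnt secretion. Cells bearing Ter119, Gr-1, B220 or CD3e were removed from both. The sources give neither the litter, the sex and the number of embryos nor any tamoxifen treatment of the WT library, so with 1 library per condition these and the library itself cannot be told apart from the genotype.

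Osteoclasts are multinucleated cells of the monocyte and macrophage lineage that dissolve mineralised matrix. They form when precursors stimulated through the receptors for M-CSF and RANKL switch on the transcription factor NFATc1, fuse with each other, attach to bone through integrins and pump protons and chloride into a sealed space, into which cathepsin K and other proteases are secreted. In the fetal femur they open the marrow cavity by removing calcified cartilage and early bone.

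The sequences just upstream of the genes are shown for the 4 members whose window held at least 1 of 5 short motifs read by factors of the osteoclast programme. RefSeq promoter windows (GRCm38.p6) of 250 bases before the gene start were at hand for 5 of the 10 members. The table holds 3 start sites each for Acp5 and Tcirg1 and 2 for Clcn7, of which the window of 1 start site is shown or described per gene. Atp6v0d2, Ocstamp, Dcstamp, Nfatc1 and Itgb3 were not matched. Capitals mark motif matches on either strand, and each window is written 5′ to 3′ on the strand of its gene: Ctsk chr3:95498960-95499209 (plus), Acp5 chr9:22135747-22135996 (minus), Oscar chr7:3616158-3616407 (minus) and Clcn7 chr17:25133141-25133390 (plus).
Ctsk: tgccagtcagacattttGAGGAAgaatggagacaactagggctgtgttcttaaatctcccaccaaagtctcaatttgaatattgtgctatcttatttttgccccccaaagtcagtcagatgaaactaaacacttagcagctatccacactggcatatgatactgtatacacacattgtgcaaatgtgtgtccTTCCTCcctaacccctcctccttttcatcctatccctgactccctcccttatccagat
Acp5: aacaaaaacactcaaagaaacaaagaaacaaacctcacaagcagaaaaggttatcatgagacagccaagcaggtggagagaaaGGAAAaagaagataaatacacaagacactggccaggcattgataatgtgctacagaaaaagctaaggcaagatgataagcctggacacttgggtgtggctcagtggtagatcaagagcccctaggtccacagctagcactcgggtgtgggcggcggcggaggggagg
Oscar: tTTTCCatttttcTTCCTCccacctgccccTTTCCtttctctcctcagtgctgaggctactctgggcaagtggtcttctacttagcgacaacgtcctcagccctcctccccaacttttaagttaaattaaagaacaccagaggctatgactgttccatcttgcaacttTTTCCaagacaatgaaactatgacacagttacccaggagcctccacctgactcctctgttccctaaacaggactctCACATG
Clcn7: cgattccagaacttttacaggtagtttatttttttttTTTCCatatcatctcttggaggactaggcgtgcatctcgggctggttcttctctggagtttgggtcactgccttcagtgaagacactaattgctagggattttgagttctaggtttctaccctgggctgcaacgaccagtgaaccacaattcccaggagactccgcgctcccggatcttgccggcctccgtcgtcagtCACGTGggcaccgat

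The letters GGAAA, the core read by NFAT factors, occurred 3 times in the Oscar window and 1 time each in those of Acp5 and Clcn7, against 55.6% of the 32851 windows of the table holding it. GAGGAA, a core read by PU.1, occurred 2 times in the Ctsk window and 1 time in the Oscar window (23.3% of all windows). The E-box CACGTG lay in the Clcn7 window (6.02% of all windows) and the E-box CATGTG in the Oscar window (12.3%). Neither TGANTCA, the AP-1 motif (6.75% of all windows), nor any of the other 4 motifs was found in the Tcirg1 window read, and TGANTCA was in none of the 5 windows read. Over all 10 windows of these 5 genes, CATGTG was in 3 and GAGGAA in 3, so windows at other start sites also held motifs. GAGGAA and GGAAA can share letters. A match describes letters only, and its absence says nothing beyond these windows.

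The members stood high in a small group of cells in each library. Cells were clustered with the 10 members left out of the variable genes, and the cluster whose markers were those of osteoclasts, called osteoclast-like, held 169 of 5736 kept WT cells (2.95%, 95% interval 2.52 to 3.42) and 109 of 6620 kept Wls cKO cells (1.65%, 1.35 to 1.98). The members summed to 27900 UMIs per 1000000 UMIs of the class (CPM, interval 27613 to 28188) in WT and 24982 (24648 to 25319) in Wls cKO. In all other kept cells of the same libraries they summed to 203.7 and 204.2 CPM. Levels are given throughout in CPM, with exact 95% Poisson intervals, and all intervals cover counting error only. Many levels moved outside these intervals under other filters or clusterings, as given at the end. Levels are counts of UMIs and are not divided by gene length. The members are not ranked against one another by level.

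The label came from marker lists that hold no member. The levels of these markers therefore describe the label and are not an independent check of it. All 8 osteoclast markers on the list (Mmp9, Calcr, Car2, Slc9b2, Siglec15, Tnfrsf11a, Rufy4 and Ckb) were above 0 in both libraries, together 18099 CPM in WT and 14003 in Wls cKO. Of 9 macrophage markers, C1qa, Mrc1, Fcgr1 and Cd163 were at 0 in both libraries, and the list summed to 2932 and 3282 CPM, against 13023 and 12334 in macrophage-like cells. Neutrophil markers were at 0 for all 7 genes in WT, and 4 of 7 were above 0 in Wls cKO at a sum of 23.4 CPM. All 6 chondrocyte markers were above 0 at 1983 and 933.8 CPM. Of these, Col2a1, the collagen of cartilage, was at 1246 and 643.6 CPM (68344 and 64421 in chondrocyte-like cells), and 4 WT and 2 Wls cKO cells held at least 20 Col2a1 UMIs. The part of the cartilage RNA in the member levels was not tested, but without those cells no member level moved by more than its counting interval. Among the 10 genes with the highest fold in the cluster, 2 were on the osteoclast list (Mmp9 and Slc9b2) and 2 on the macrophage list (Cd68 and Csf1r), so the osteoclast name rests on the marker levels rather than on a majority of these.

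The libraries held 22708005 UMIs from 5998 barcodes (WT) and 24704991 UMIs from 6825 barcodes (Wls cKO), with medians of 3128 and 3067 UMIs per kept cell. Osteoclast-like cells were deeper, at medians of 7170 and 7984 UMIs. The libraries shared 49 barcodes, which touch 1 osteoclast-like cell in each. Wls itself stood at 41.8 CPM (33.3 to 51.7) in WT and 23.0 (16.6 to 31.1) in Wls cKO endothelial-like cells, and at 6.16 and 11.7 in osteoclast-like cells; whether the counted end of the transcript lies within the deleted part is not given in the sources used here.

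Transcripts of Ctsk and of Acp5 were found in nearly every osteoclast-like cell. Ctsk, which encodes the collagen-cutting protease cathepsin K (GRCm38 chr3:95499256-95509362), reached 16181 CPM (15963 to 16401) in WT and 13516 (13271 to 13765) in Wls cKO, with a UMI in 93.5% and 93.6% of the cells. Acp5, which encodes tartrate-resistant acid phosphatase (chr9:22126727-22135711), was at 3470 (3369 to 3572) and 3224 (3104 to 3346) CPM, with a UMI in 97.6% and 98.2% of cells. In chondrocyte-like cells, taken as a class that should lack Acp5, 0.877% of WT and 1.01% of Wls cKO cells held an Acp5 UMI, at median depths of 2730 and 2786 UMIs. With every cell thinned to 1000 UMIs the Acp5 shares were 84.8% and 84.1% in osteoclast-like against 0.369% and 0.381% in chondrocyte-like cells. Acp5 shares 137 exon bases (6.75% of its exons) with a gene on the opposite strand that has no row in the tables, and the sources do not state whether counting used the strand.

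Of the acid-transport genes, Atp6v0d2 marked the class while Tcirg1 and Clcn7 were also counted elsewhere. Atp6v0d2, a subunit of the proton pump (chr4:19876841-19922605), was at 3370 CPM in WT and 3512 in Wls cKO and had a UMI in 97.6% and 94.5% of osteoclast-like cells, against 0.239% and 0.295% of chondrocyte-like cells. Tcirg1, the pump's a3 subunit (chr19:3896050-3907133), was at 654.3 (611.1 to 699.8) and 616.6 (565.1 to 671.6) CPM. Clcn7, the chloride and proton exchanger (chr17:25133391-25162104), was at 153.2 (132.6 to 176.0) and 167.3 (141.0 to 197.1). Cells with a UMI made up 85.2% and 86.2% for Tcirg1 and 53.8% and 56.0% for Clcn7, against 3.27% and 3.56%, and 2.79% and 3.98%, of chondrocyte-like cells.

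Dcstamp and Ocstamp encode membrane proteins required for precursors to fuse. Dcstamp (chr15:39745930-39760938) was at 702.8 (658.0 to 749.9) CPM in WT and 615.5 (564.0 to 670.4) in Wls cKO, and Ocstamp (chr2:165393760-165400405) at 662.8 (619.3 to 708.6) and 619.0 (567.4 to 674.1). Outside the osteoclast-like cells, all other 5567 WT cells together held 9 Dcstamp UMIs and 1 Ocstamp UMI, and all other 6511 Wls cKO cells held 8 and 6. Both were thus near the detection limit in the rest of the marrow.

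The receptor Oscar, an immunoglobulin-like receptor that lends costimulation to RANK signalling (chr7:3609813-3616157), was at 310.2 (280.7 to 342.1) and 268.0 (234.4 to 305.0) CPM. Itgb3, the beta subunit of the vitronectin receptor (chr11:104608000-104670476), was at 303.3 (274.1 to 334.8) and 276.1 (242.0 to 313.7). In contrast to the transcripts of Ctsk and Acp5, each was seen in a minority of osteoclast-like cells: Oscar in 37.9% and 39.4%, and Itgb3 in 43.8% and 44.0%. In chondrocyte-like cells the Oscar share was 0% (0 UMIs) in WT and 0.0246% in Wls cKO, and the Itgb3 share 0.957% and 0.590%. The transcription factor Nfatc1, at 2092 (2014 to 2173) and 2168 (2071 to 2269) CPM, was found in 97.6% and 91.7% of osteoclast-like cells, but also in 25.8% and 27.6% of chondrocyte-like cells.

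**Figure D1:**
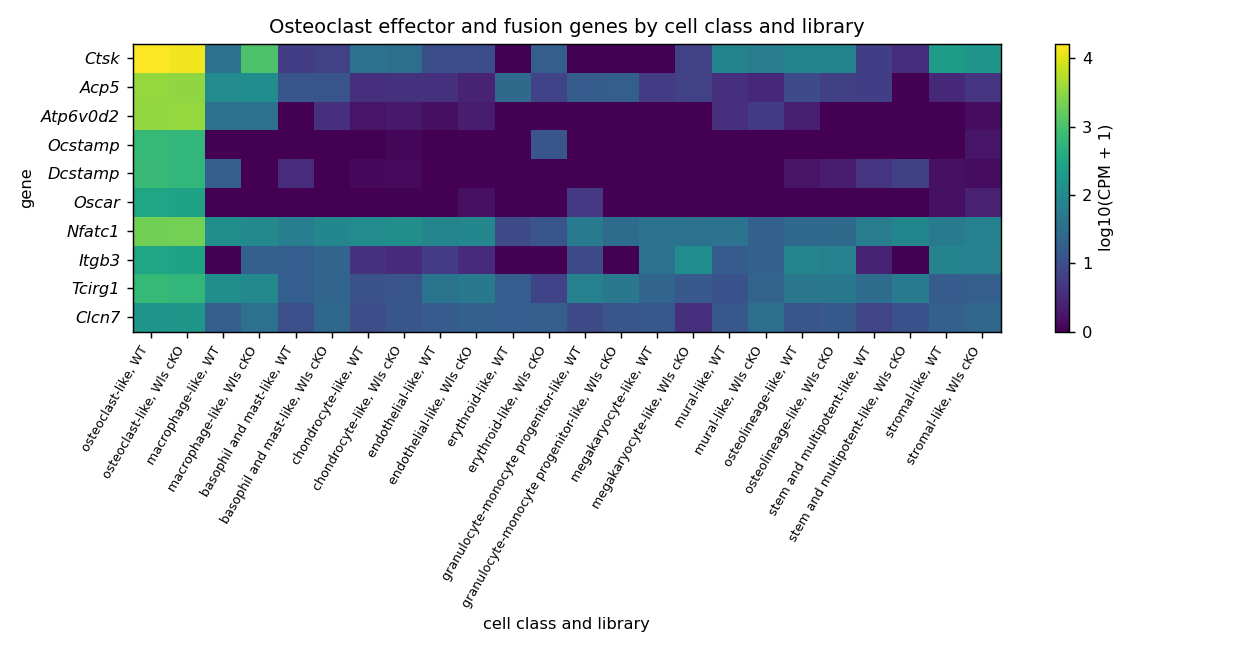
Level of each gene (rows) in each named cell class of the WT and Wls cKO libraries (columns), as colour on a scale of log10(CPM + 1). The 2 osteoclast-like columns at the left are the brightest in every row, and Nfatc1, Itgb3, Tcirg1 and Clcn7 also carry colour in most other columns, while Ocstamp and Oscar are dark in nearly all of them.

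The members fell into a restricted and a broad set by where their UMIs lay. Ctsk, Acp5, Atp6v0d2, Ocstamp, Dcstamp and Oscar had 90.8% (Ctsk, Wls cKO) to 99.9% (Ocstamp, WT) of a library's UMIs in osteoclast-like cells, which held 5.83% (WT) and 3.50% (Wls cKO) of all UMIs. The other 4 members had smaller shares there. For Nfatc1 it was 63.1% in WT and 44.8% in Wls cKO, for Tcirg1 66.7% and 54.6%, for Clcn7 44.3% and 27.8%, and for Itgb3 42.9% and 37.3%. The Wls cKO shares were the lower ones for all 10 members, and the class was also the smaller share of cells there. Relative to all other kept cells, the level in osteoclast-like cells was higher by at least 4-fold for 10 of 10 members in both libraries. At the same fold lay 4.22% of 12408 genes in WT and 4.78% of 12498 in Wls cKO. As the members were picked for this contrast, nothing is read from their count.

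**Figure D2:**
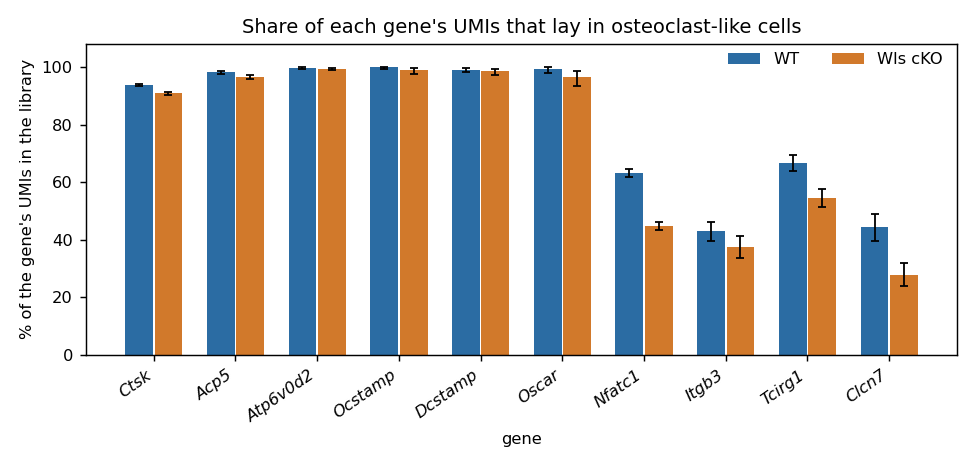
Percentage of each gene's UMIs in a library that lay in osteoclast-like cells (bars, WT and Wls cKO) with exact 95% Clopper-Pearson intervals. The 6 genes at the left exceed 90% in both libraries and the 4 at the right lie between 27.8% and 66.7%.

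Summed over the members, macrophage-like cells, the nearest blood relatives, lay below osteoclast-like cells and above the pool of all other kept cells. This class held 13 WT and 14 Wls cKO cells with medians of 4525 and 3619 UMIs. The members summed to 467.7 (305.5 to 685.3) and 1488 (1178 to 1854) CPM. The WT interval also held the sum of WT stromal-like cells, 374.5 CPM. In WT macrophage-like cells Ctsk had 2 UMIs and Itgb3 0, so single members need not follow the sum. In all other kept cells, these included, the sums were 203.7 and 204.2 CPM. In Wls cKO, 58 of the 79 member UMIs of the class were Ctsk UMIs of 1 cell. All 10 members were at least 4-fold higher in osteoclast-like than in macrophage-like cells by the ratio or its lower bound, a fold reached by 5.02% of 4365 genes in WT and 7.59% of 3293 in Wls cKO, and again the members were picked for it. In WT and Wls cKO, Nfatc1 was 16.6-fold and 23.0-fold higher and Acp5 32.1-fold and 28.5-fold. Ocstamp, with 0 macrophage-like UMIs in both libraries, was at least 12.3-fold and 11-fold higher against a floor of 3 counts per class and library, and Oscar at least 5.75-fold and 4.74-fold. The smallest ratios were those of Tcirg1 (5.197 and 6.55) and Clcn7 (8.52 and 4.44, the latter with an interval of 1.21 to 37.0 on 2 macrophage-like UMIs).

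A single macrophage-like cell carried the Ctsk of that class in Wls cKO. The ratio of Ctsk was 449.8 in WT, where macrophage-like cells held 2 Ctsk UMIs, and 12.4 in Wls cKO, where they held 58. All 58 were in 1 of the 14 cells and the other 13 held 0. Irf8, a repressor that holds back osteoclast genes in macrophages, ran the other way: in osteoclast-like cells it was at 0.0214 (0.0057 to 0.0687) of the macrophage-like level in WT, on 5 UMIs, and at 0.0155 (0.0028 to 0.0576) in Wls cKO, on 3 UMIs.

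Outside blood cells, Ctsk was counted with few or no UMIs of the other restricted genes. Ctsk was at 205.7 CPM (191.0 to 221.2) in WT and 155.7 (141.4 to 171.0) in Wls cKO stromal-like cells, where 40.2% and 31.0% of cells held a UMI. In endothelial-like cells of like depth (medians of 2977 and 3303 UMIs, against 2963 and 3075 in stromal-like cells) the share was 2.37% and 3.23%. At 1000 UMIs per cell it was 16.3% and 14.7% in stromal-like against 0.348% and 0.439% in endothelial-like cells. Acp5 in the same stromal-like cells was at 1.97 and 3.23 CPM, and Atp6v0d2 at 0 (0 UMIs) and 0.359. The 3 genes therefore did not keep in stromal-like cells the proportion they had in osteoclast-like cells. Osteolineage-like cells had Ctsk at 77.8 and 77.3 CPM and mural-like cells at 78.7 and 59.0.

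Nfatc1 was counted in chondrocyte-like cells at 106.4 CPM in WT and 120.6 in Wls cKO, and within them a cluster led by Prg4 and Cilp, genes of the joint surface, had 245.6 and 227.0. NFATc1 is also known from the endothelium of the heart valves, and endothelial-like cells had 82.6 and 88.1 CPM. Itgb3 was at 76.5 and 66.7 in stromal-like cells, where a cluster led by Clic5 and Hbegf had 177.1 and 176.3, and at 81.8 and 68.8 in osteolineage-like cells. Itgb3 in megakaryocyte-like cells, whose platelet receptor uses this subunit, was at 36.1 in WT on 16 UMIs and 110.3 in Wls cKO on 39 UMIs. Tcirg1 was at 40.8 and 49.8 CPM in endothelial-like and 44.9 and 46.6 in osteolineage-like cells, and Clcn7 between 8.71 and 23.3 in chondrocyte-like, endothelial-like and stromal-like cells of both libraries.

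Most osteoclast-like cells held many members at once. At least 5 of the 10 were detected in 156 of 169 WT cells (92.3%, 87.2 to 95.8) and 101 of 109 Wls cKO cells (92.7%, 86.0 to 96.8), and the median was 8 in both. These shares depend on the clustering: with each library clustered alone the class was larger and they were 71.1% and 58.0%. The naming rule was looser there and no macrophage-like class formed. Whether the larger class took in macrophages was not tested. All 10 were detected in 34 WT cells (20.1%) and 22 Wls cKO cells (20.2%). Among the other kept cells, 1 of 5567 in WT, an osteolineage-like cell, and 1 of 6511 in Wls cKO, an endothelial-like cell, reached 5 members. Median depth there was 3079 and 3044 UMIs. With cells thinned to 1000 UMIs, 66.1% of WT and 58.9% of Wls cKO osteoclast-like cells reached 5 members, and 0 other cells did in either library. As the members were picked for levels that set this class apart, nothing is read from this contrast.

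**Figure D3:**
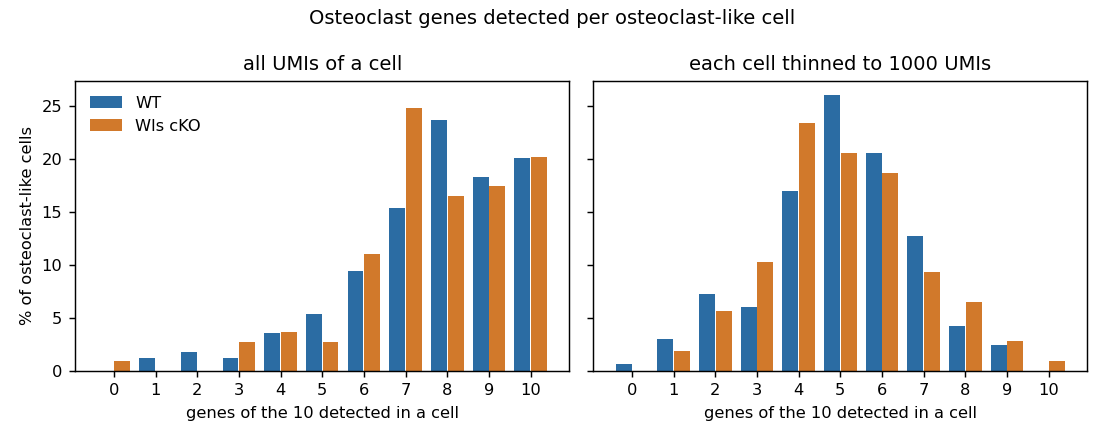
Percentage of osteoclast-like cells (vertical axis) by how many of the 10 genes had a UMI in the cell (horizontal axis), for WT and Wls cKO, with all UMIs of a cell (left) and after thinning each cell to 1000 UMIs (right). With all UMIs both libraries peak at 7 or 8 genes and about 20% of cells hold all 10, and after thinning they peak at 4 or 5.

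The fusion genes were detected together in 122 WT cells (72.2%) and 79 Wls cKO cells (72.5%), and neither was detected in 17 and 10. Cells with both had Ctsk at 18460 CPM in WT and 15394 in Wls cKO, and cells with neither at 6002 and 1290. Depth differed between these cells, with medians of 7754 and 8648 UMIs where both were detected and 4162 and 6960 where neither was, and its part in the detection was not tested. Every cell with an Oscar UMI (64 in WT, 43 in Wls cKO) also held Ctsk and Acp5, and every cell with an Itgb3 UMI (74 and 48) also held Ctsk. Most cells of the class held these genes in any case: Ctsk 158 of 169 in WT and 102 of 109 in Wls cKO, and Acp5 165 and 107. Oscar and Itgb3 were seen together in 47 WT and 32 Wls cKO cells.

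Levels varied widely from cell to cell. In WT, Ctsk per cell ran from 0 to 62507 CPM with a median of 9487, and the top 17 cells held 43.0% of the Ctsk UMIs of the class. The spread of Atp6v0d2 was narrower, as the same number of cells held 26.4% of its UMIs. The 5 subclusters, made again without the members, described part of this variation. Subcluster 1 (48 WT and 33 Wls cKO cells) was led by the cell-cycle genes Prc1 and Top2a and by Col2a1 and held the 6 cells with at least 20 Col2a1 UMIs. Subcluster 2 (43 and 24 cells) was led by Mt3 and Ckb, subcluster 3 (36 and 25 cells) by Nme4 and Lst1, subcluster 4 (37 and 15 cells) by Hnmt and Kcnj2, and subcluster 5 (5 and 12 cells) by Cthrc1 and Gc.

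The receptors differed most between subclusters and Nfatc1 the least among the first 4. Oscar was at 30.7, 713.7, 22.5, 91.0 and 962.4 CPM in subclusters 1 to 5. Itgb3 was at 35.3, 585.8, 8.45, 232.8 and 1486 in the same order. Both were thus high in subclusters 2 and 5 and low in 1 and 3. Oscar was 23.2-fold (14.9 to 38.4) and Itgb3 16.6-fold (10.9 to 26.4) higher in subcluster 2 than in subcluster 1, against 5.74-fold for Ctsk and 1.13-fold for Nfatc1. Relative to subcluster 3, with 3 Itgb3 UMIs in all, Itgb3 in subcluster 2 was 69.3-fold higher (23.6 to 337.4).

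Ctsk was likewise highest in subclusters 5 and 2, at 4865, 27908, 6872, 11111 and 45036 CPM in subclusters 1 to 5, as was Acp5 at 1281, 5966, 1617, 2416 and 10686. Ocstamp ran from 187.4 in subcluster 1 to 1194 in subcluster 2 and Dcstamp from 319.5 to 1122, with subcluster 5 at 920.0 and 835.1. Atp6v0d2 spanned a smaller range, 1880 to 4817 CPM. The median number of members per cell was 7 in subclusters 1 and 3, 8 in subcluster 4, 10 in subcluster 2 and 9 in subcluster 5.

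With both libraries summed, subcluster 5 joined the highest Ctsk, Acp5, Oscar and Itgb3 of the 5 subclusters to the lowest Nfatc1. Nfatc1 was at 127.4 CPM there against 1839 to 2887 in the other 4, a ratio of 0.0612 (0.0279 to 0.117) to subcluster 2, whereas Itgb3 was 2.54-fold higher than in subcluster 2. In both libraries Ctsk, Acp5 and Itgb3 were highest and Nfatc1 lowest in subcluster 5, with Nfatc1 at 209.2 (67.9 to 488.3) in the 5 WT cells and 85.5 (23.3 to 219.0) in the 12 Wls cKO cells. Oscar was highest there in Wls cKO (1069 against 576.2 in subcluster 2) but not in WT (753.3 against 800.7). These 17 cells also had a median mitochondrial share of 18.7% and a median of 2735 UMIs, against 10.6% and 9741 in subcluster 2. The nuclear RNAs Neat1 and Malat1 were at 0 (0 UMIs) and 169.8 CPM there, while in subclusters 1 to 4 Neat1 ran from 26.1 to 141.8 and Malat1 from 231.0 to 699.5. The part of cell quality in the low Nfatc1 was not tested.

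**Figure D4:**
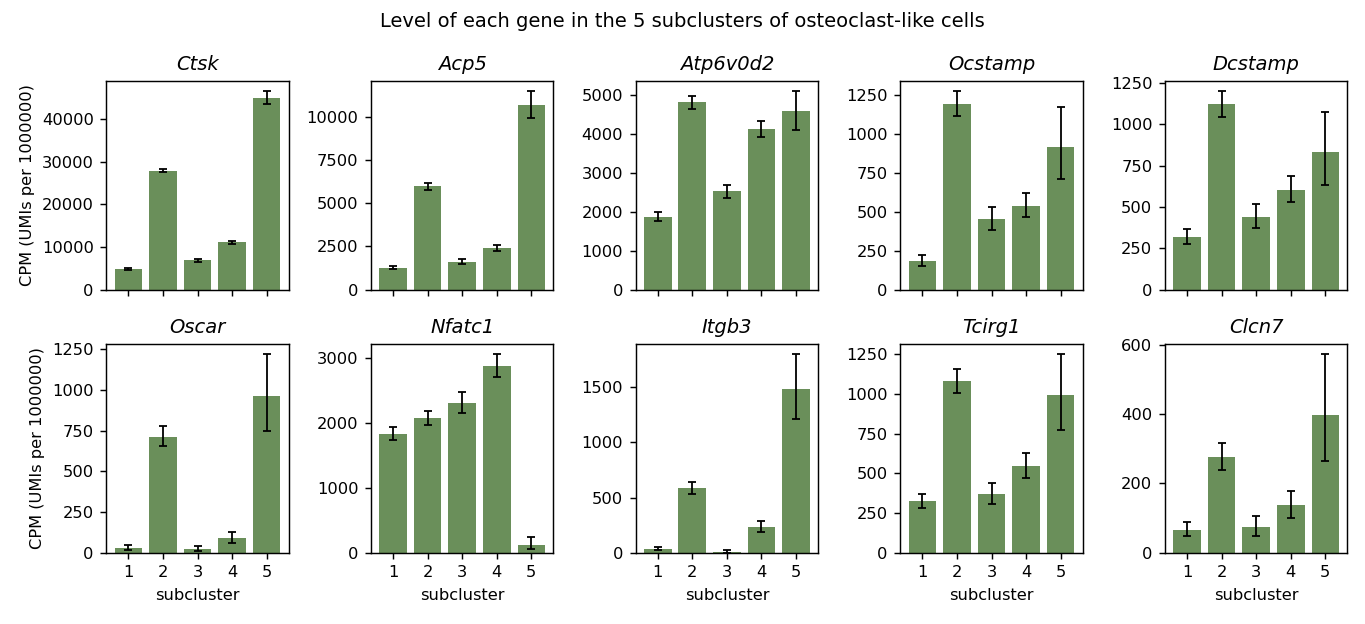
Level of each gene (CPM, linear axis from 0, own scale per panel) in the 5 subclusters of osteoclast-like cells, both libraries summed, with exact 95% Poisson intervals. Oscar and Itgb3 are near 0 in subclusters 1 and 3, and Nfatc1 alone has its lowest bar in subcluster 5.

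Between the libraries, member levels in osteoclast-like cells were close. The ratio of Wls cKO to WT was 0.895 (0.880 to 0.911) for the sum of the members and 0.978 (0.954 to 1.004) without Ctsk, which makes up the larger part of that sum. Ctsk had the lowest ratio, 0.835 (0.817 to 0.855), followed by Oscar at 0.864 (0.731 to 1.018), Dcstamp at 0.876 (0.785 to 0.976) and Itgb3 at 0.911 (0.772 to 1.07). Acp5 was at 0.929 (0.886 to 0.975), Ocstamp at 0.934 (0.837 to 1.04) and Tcirg1 at 0.942 (0.844 to 1.05). Atp6v0d2 at 1.04 (0.994 to 1.09), Nfatc1 at 1.04 (0.976 to 1.10) and Clcn7 at 1.09 (0.875 to 1.36) were at or above 1.

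With 1 library per condition these ratios have no replicate check, and their intervals do not hold the spread between embryos or libraries. None of the 10 members reached a 1.5-fold difference in either direction, and of 1991 genes with enough UMIs 2.76% were higher and 1.51% lower in Wls cKO by that fold. The members' median ratio was 0.932 and that of all these genes 1.01. By subcluster the ratio of the sum was 0.788, 0.854, 1.01, 1.01 and 0.903 from 1 to 5, and weighting the subclusters as in WT gave 0.889. Acp5 turned to 1.12 when each cell counted equally and to 1.03 in cells with at least 1000 UMIs and under 10% mitochondrial UMIs, and the summed ratio under that filter was 0.990 (0.968 to 1.01).

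**Figure D5:**
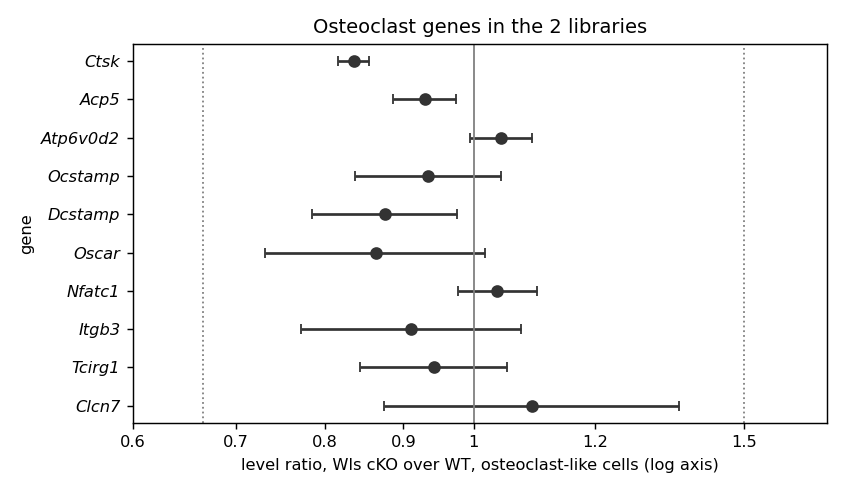
Ratio of the level in Wls cKO to that in WT osteoclast-like cells for each gene (points, log axis) with 95% conditional binomial intervals that cover counting error only. The solid line marks equal levels and the dotted lines a 1.5-fold difference, which no point reaches.

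In the authors' cell lists for the WT library, the osteoclast-like cells lie among blood progenitors. Of the 169 cells, 168 were in listed haematopoietic stem and progenitor cell (HSPC) subsets and 129 (76.3%) in the subset listed as neutrophil progenitors, where the members summed to 31518 CPM and the 9 cells that were neither osteoclast-like nor macrophage-like had 351.7 on 7 UMIs. Listed multipotent HSPCs held 32 osteoclast-like and 12 macrophage-like cells of 173, and listed myeloid progenitors 7 osteoclast-like cells of 144. The 89 listed megakaryocyte progenitors held 0 of either.

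The member levels of listed multipotent HSPCs came nearly entirely from those cells for the restricted genes. Without the osteoclast-like and macrophage-like cells, Ctsk went from 501.0 to 3.35 CPM and Atp6v0d2 from 251.8 to 0 (a limit of 3.35). The broad genes kept more, with Nfatc1 going from 402.0 to 64.8 and Tcirg1 from 95.5 to 51.4. In listed myeloid progenitors Ctsk went from 560.3 to 8.72 and the sum from 1019 to 143.3. The 32 osteoclast-like cells among multipotent HSPCs had Nfatc1 at 1909 (1726 to 2106), near its level of 2163 (2075 to 2254) in the 129 cells, with Ctsk at 2743 against 19040 and Itgb3 at 0 (a limit of 14.4) against 372.0. Subclusters 1 and 3, given above, likewise had low Ctsk and Itgb3 beside Nfatc1 near that level. As these lists were drawn from the same cells, these values carry no test.

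The partner genes of the members were followed in lists by function, relative to all other kept cells of the library. Of 16 further subunits of the vacuolar proton pump, 13 were at least 4-fold higher in osteoclast-like cells in WT and 13 in Wls cKO, with median ratios of 10.3 and 10.7. Atp6v1b2 was at 3810 and 3676 CPM, whereas Atp6v0d1, the widely used relative of Atp6v0d2, was at 110.1 and 91.3 and only 2.17-fold and 2.21-fold higher. All 6 genes of acid and chloride transport passed 4-fold in both libraries, among them Car2, the carbonic anhydrase that supplies protons, at 1437 and 1385 CPM and Snx10, a sorting nexin needed for resorption, at 64.2-fold and 96.2-fold. Of 5 further proteases with a count, Mmp9 alone did, at 14020 and 10316 CPM (90.5-fold and 123.2-fold), and Ctsb was 3.75-fold and 2.64-fold higher than in other cells but at 0.199 and 0.180 of the macrophage-like level.

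Upstream genes stood high as well. All 5 receptors and adaptors with at least 50 UMIs passed 4-fold in both libraries, including the RANK gene Tnfrsf11a (169.8-fold and 184.1-fold) and the M-CSF receptor gene Csf1r (1051 and 1426 CPM). Such folds did not extend to macrophage-like cells: the ratio of osteoclast-like to macrophage-like cells was 0.870 (0.519 to 1.57) and 1.66 (0.829 to 3.90) for Tnfrsf11a, 0.913 (0.710 to 1.19) and 0.750 (0.612 to 0.928) for Csf1r, and 0.398 and 0.282 for the adaptor gene Fcer1g. Relative to all other kept cells again, 6 of 7 transcription factors passed 4-fold, Fos being at 0.599 and 0.455 of the level there. Of 5 attachment genes with enough UMIs 3 did, among them Itgav, the partner of the Itgb3 protein, at 1209 and 1160 CPM, and the kinase gene Src at 358.7 and 359.2. Fusion partners outside the member list were different, since 1 of 5 passed in WT and 2 in Wls cKO, with medians of 0.549 and 0.750 and the tetraspanin gene Cd9 at 0.530 and 0.440. Over all genes the shares at that fold were 4.22% and 4.78%. The lists were put together with the identity of the cells known, and their counts are a description.

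Across 38 points (19 classes in each of the 2 libraries), the genes whose levels on a log2 scale followed the mean of the members most closely included Mst1r (Pearson r of 0.966), Mt3 (0.965), Bdh2 (0.963), Cyp2s1 (0.951), Rufy4 (0.9499), Slc9b2 (0.948), Slc37a2 (0.935), Atp6v0e (0.910) and Atp6v1d (0.909). The points share libraries and the osteoclast-like pair dominates them, so r is descriptive. Among the members themselves Ocstamp and Oscar were the closest pair (0.984) and Itgb3 and Tcirg1 the most distant (0.419). Itgb3 had no close companion, as the highest r of any gene outside the members was 0.721 (Srgap3), and for Nfatc1 it was 0.851 (Hexa).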

How the data were processed

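Single-cell whole-transcriptome libraries of E18.5 marrow, 1 WT and 1 Wls cKO, were analysed. The authors deposited unnormalised UMI counts per gene and cell barcode. The submitters' processing notes name bcl2fastq 2.19.1.403, UMI-tools 1.0.1, STAR 2.7.1a, featureCounts 1.6.4 and mm10. Ambient RNA counted into a barcode was not removed. Cells with over 200 and under 5000 genes and under 30% mitochondrial UMIs were kept, as in the study's methods. Counts were scaled to 10000 per cell and log-transformed, and both libraries were clustered together without the members (11 principal components, 20 neighbours, Leiden resolution 0.5, blood cells again at 1.0) with scanpy 1.11.5 and leidenalg 0.10.2 in Python 3.11.15. Clusters were named from marker lists (score of at least 0.3, at least 3 markers in 10% of cells, no other list with more of the top 10 genes). That rule and the split into blood and other cells (Ptprc of at least 50 CPM, UMIs per 1000000) were set after seeing the data, and rebuilt names can differ from the study's. In the alternative clusterings, a blood cluster whose highest-scoring list was the osteoclast list was called osteoclast-like whatever its top genes. Macrophages can merge into such a cluster. Scrublet called 38 WT cells (0.662%) and 0 Wls cKO cells. Whether these calls missed doublets was not tested, and no cell was removed on them.

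Summed UMIs per class were given exact Poisson, Clopper-Pearson and conditional binomial 95% intervals (scipy 1.17.1). These were run on counts simulated from the same Poisson and binomial models, without spread between cells. That run checks the computation only and not the coverage in these data. A count of 0 was given a limit of 3 counts. No test was possible with 1 library per condition. Fold counts used genes with at least 50 UMIs over the classes compared (200 between libraries). Likeness used log2(CPM + 10) over classes of at least 10 cells. TMM factors came from edgeR 4.0.16 in R 4.3.3. The members and lists were chosen with earlier results of these data known. Genes named outside the members were the 3 highest of each list, a few standing partners and the genes most like the members. A few of the genes so chosen are not reported here. Adgre1 appears as Emr1, and Mmp12 had no row. The authors' cell lists give cluster numbers, which were matched to subset names through the key of the study's figures. The lists of chondrocytes and endothelial cells were used in part only.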

Additional observations from a re-analysis of the deposited data

How the results depend on the processing

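Clustering, filter and depth changed the size of the class and the levels and detection of members more than the direction of their ratios. In cells with at least 1000 UMIs and under 10% mitochondrial UMIs, 19 member levels moved outside their main counting intervals and 1 did not. Under separate clustering of the libraries 16 did and 4 did not. Over all alternatives 73 did and 117 did not. With each library clustered alone, osteoclast-like cells made up 3.801% of WT and 2.63% of Wls cKO cells, and 71.1% and 58.0% of them held at least 5 members. With 30 principal components the latter shares were 85.6% and 81.4%. After thinning to 1000 UMIs they were 66.1% and 58.9%, and at 500 UMIs 30.8% and 28.4%. In cells with at least 1000 UMIs and under 10% mitochondrial UMIs, the class was 2.16% of WT cells, 81.1% (WT) and 75.4% (Wls cKO) of member UMIs lay in it against 89.5% and 81.6%, and the summed ratio of Wls cKO to WT was 0.990. Without the top 5% of Scrublet scores 82.6% of Wls cKO member UMIs lay in it. The summed ratio without Ctsk was 0.978, and under the other settings it lay between 0.805 and 0.9003. The Acp5 ratio, 0.929, turned to 1.03 under the stricter filter and to 1.12 as a mean over cells. The causes were not tested. Clcn7 over macrophage-like cells in Wls cKO was 3.61 (0.976 to 30.2) under the stricter filter. No macrophage-like class formed with 30 principal components, without high Scrublet scores or with each library alone. Leaving out Ctsk, cells with at least 20 Col2a1 UMIs or the macrophage-like cell with most Ctsk, and weighting the subclusters, were chosen after seeing the data. No paired analysis was possible because each condition has 1 library.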
